A study of Mus musculus with 12 samples.

Results

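The genes described are 10 receptors for chemokines and related attractants in bone marrow-derived dendritic cells (BMDC): Ccr1, Ccr2, Ccr3, Ccr7, Ccr8, Ccrl2, Cxcr2, Cxcr4, Cx3cr1 and C3ar1. They were taken from a list of symbols, and each had exactly 1 probe set that the platform annotation gives to that gene alone. They are 10 of 22180 genes measured, and all 10 were tested, with no filter on low signal. The study grew BMDC from marrow of C57BL/6 mice aged 8 weeks with GM-CSF, a growth factor for myeloid cells, at 20 ng/ml, and took semi-adherent cells on day 7. There were 4 groups of 3 arrays: Arc/Arg3.1 -/- (knockout) BMDC with LPS, untreated knockout BMDC, wildtype BMDC with LPS, and untreated wildtype BMDC. LPS, a component of the outer membrane of bacteria that Toll-like receptor 4 senses, was given at 100 ng/ml for 30 min, and after washing the cells stayed in plain medium for 1 h. Untreated cells received medium on the same schedule. The labels describe the knockout only as Arc/Arg3.1 -/-, and they call the arrays biological replicates without saying how many animals they came from. The spread behind each p-value is therefore that of these cultures, which may be technical.

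Chemokine receptors are G protein-coupled receptors that turn a gradient of a secreted chemokine into directed movement. In the textbook account of dendritic cell migration, immature cells and their monocyte precursors follow inflammatory chemokines through Ccr1 and Ccr2, and maturing cells lose these receptors and use Ccr7, the receptor for Ccl19 and Ccl21, to reach lymph nodes. Cxcr4 is the receptor for Cxcl12, Cx3cr1 for fractalkine (Cx3cl1), Cxcr2 for neutrophil-attracting CXC chemokines, Ccr3 for eotaxins, Ccr8 for Ccl1, and C3ar1 for the complement fragment C3a. Ccrl2 is an atypical receptor that binds chemerin and is not known to signal through G proteins.

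Arc, the deleted gene, had lower signals on all knockout arrays than on any wildtype array. Its log2 signal was 7.68 to 8.05 on the 6 knockout arrays and 9.21 to 9.62 on the 6 wildtype arrays, and the log2 difference over both treatments was -1.49 (SE 0.12, limma adjusted p = 0.0015, and 0.195 without the 4 arrays of low small RNA signal). In untreated cells alone Arc did not pass by limma (log2 difference -1.48), and after LPS it did (-1.50). The call after LPS was lost with only the groups compared and without replicate 1 of LPS-treated wildtype. It was also lost without the arrays of Y-linked signal and without those of low small RNA signal, both described below. Where on the Arc transcript this probe set lies is not known here. The median log2 signal per array was 6.50 to 6.67 and the highest 14.02 to 14.22, while the median of the probe sets that carry no gene, used here as a background level, was 5.89 to 6.10. Between the 3 untreated wildtype arrays, pairs differed by an SD of 0.105 to 0.108 over genes that averaged above 8, against 0.193 to 0.438 for the other 9 pairs of arrays of 1 group, so these 3 were averaged and counted as 1 sample, which leaves 10 samples. All arrays are labelled male, but Xist had a log2 signal of 11.22 to 11.92 on 9 arrays, while the mean of 3 Y-linked genes was 8.83 to 9.24 on the other 3 arrays (replicate 2 of both knockout groups and replicate 1 of LPS-treated wildtype), where Xist was 5.63 to 5.76. Small nucleolar RNA genes (79 genes) had a median of 9.55 to 9.85 on LPS replicates 2 and 3 of both genotypes and 10.44 to 11.03 on the other 8 arrays. Receptors whose call changed without the arrays of Y-linked signal or those of low small RNA signal are given with that value.

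All 7 conventional dendritic cell markers measured, among them Itgax, H2-Ab1 and Flt3, lay above the background level in every group. Zbtb46 and Irf4, transcription factors of these cells, rose with LPS in knockout BMDC. Zbtb46 also rose in wildtype BMDC, with a log2 difference of 0.67 in knockout and 0.88 in wildtype cells (limma adjusted p = 0.00378 and 0.0145). None of the 7 was called lower. Their median log2 difference was 0.07 in knockout and 0.06 in wildtype, and the lowest was -0.39 and -0.41. Of all genes, 2.98% were called higher in knockout and 1.34% in wildtype. The 9 macrophage and 7 inflammatory monocyte markers also lay above the background level in every group, so markers of these other cell types were measured in the same RNA.

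The sequences just upstream of the 4 receptor genes that changed with LPS are shown because LPS acts on genes through transcription factors whose binding motifs can be read in such stretches. Of the 10 genes, 9 had windows of 250 bases before to 50 bases after the start in the RefSeq promoter table of GRCm38.p6 (11 windows, 3 of them Ccrl2's). The 150 bases that end just before the start are printed in the direction of the gene, and capitals mark kappa-B and AP-1 matches. Ccrl2's stretch, from its first window, lies at chr9:111057519-111057668 on the minus strand, Ccr1's at chr9:123968693-123968842 on the minus strand, Ccr2's at chr9:124102033-124102182 on the plus strand and C3ar1's at chr6:122856158-122856307 on the minus strand.
Ccrl2: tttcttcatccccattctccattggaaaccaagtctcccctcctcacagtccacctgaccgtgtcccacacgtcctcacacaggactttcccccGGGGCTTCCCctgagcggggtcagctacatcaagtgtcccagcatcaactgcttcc
Ccr1: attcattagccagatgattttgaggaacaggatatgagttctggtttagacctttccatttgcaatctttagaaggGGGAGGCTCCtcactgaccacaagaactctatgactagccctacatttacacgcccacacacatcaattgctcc
Ccr2: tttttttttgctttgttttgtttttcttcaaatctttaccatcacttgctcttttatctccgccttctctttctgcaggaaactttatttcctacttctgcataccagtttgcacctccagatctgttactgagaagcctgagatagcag
C3ar1: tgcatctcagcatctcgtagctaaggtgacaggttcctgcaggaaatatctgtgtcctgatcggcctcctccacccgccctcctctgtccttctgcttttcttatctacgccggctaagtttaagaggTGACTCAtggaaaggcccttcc

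A kappa-B match, the element of NF-kB, lay 56 to 47 bases before the start of Ccrl2 and 74 to 65 bases before that of Ccr1, and neither of Ccrl2's other 2 windows held one. An AP-1 match (TGANTCA) lay 22 to 16 bases before the start of C3ar1. No kappa-B or AP-1 match lay in the Ccr2 window. Ccr3 held both motifs, with its kappa-B match overlapping a PU.1 match (GAGGAA), and Ccr1 and Cxcr2 also held PU.1 matches. The interferon element (GAAA, any 2 bases, GAAA) was in none of the 11 windows. Both strands were searched, and of all 32851 windows of that length, 8.46% held kappa-B, 7.81% AP-1, 28.3% PU.1 and 3.44% the interferon element. A match describes these letters and is not evidence that a factor binds there. On the reference map 6 of the 10 genes lie on chromosome 9, where Ccr3 and Ccr2 are direct neighbours and Ccr1 is separated from Ccr3 by Ccr1l1, while Cx3cr1 is the direct neighbour of Ccr8.

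LPS changed 4 of the 10 receptors in knockout BMDC and 2 of the 10 in wildtype BMDC, and the atypical receptor Ccrl2 was the 1 that rose. In knockout cells Ccrl2 rose and Ccr2, Ccr1 and C3ar1 fell, and in wildtype cells Ccrl2 rose and Ccr2 fell. The test was limma with Benjamini-Hochberg adjustment over all 22180 genes and genes with an adjusted p below 0.05 were called. Of all genes, 2.98% were called higher and 2.93% lower in knockout, and 1.34% higher and 0.234% lower in wildtype. The median log2 difference of the 10 receptors was -0.03 in knockout and -0.36 in wildtype, and that of all genes was -0.0037 and -0.0053. These medians include Ccr3 and Ccr8, whose signals were at or near the background level. The wildtype median lay between the values of C3ar1 and Ccr8. With the untreated wildtype arrays as 3 samples, 1 receptor was higher and 4 lower in each genotype, where 3.93% of all genes were called higher and 5.18% lower in knockout, and 5.39% higher and 3.26% lower in wildtype. In bulk RNA, fewer cells of a type and less RNA per cell cannot be told apart.

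**Figure D1:**
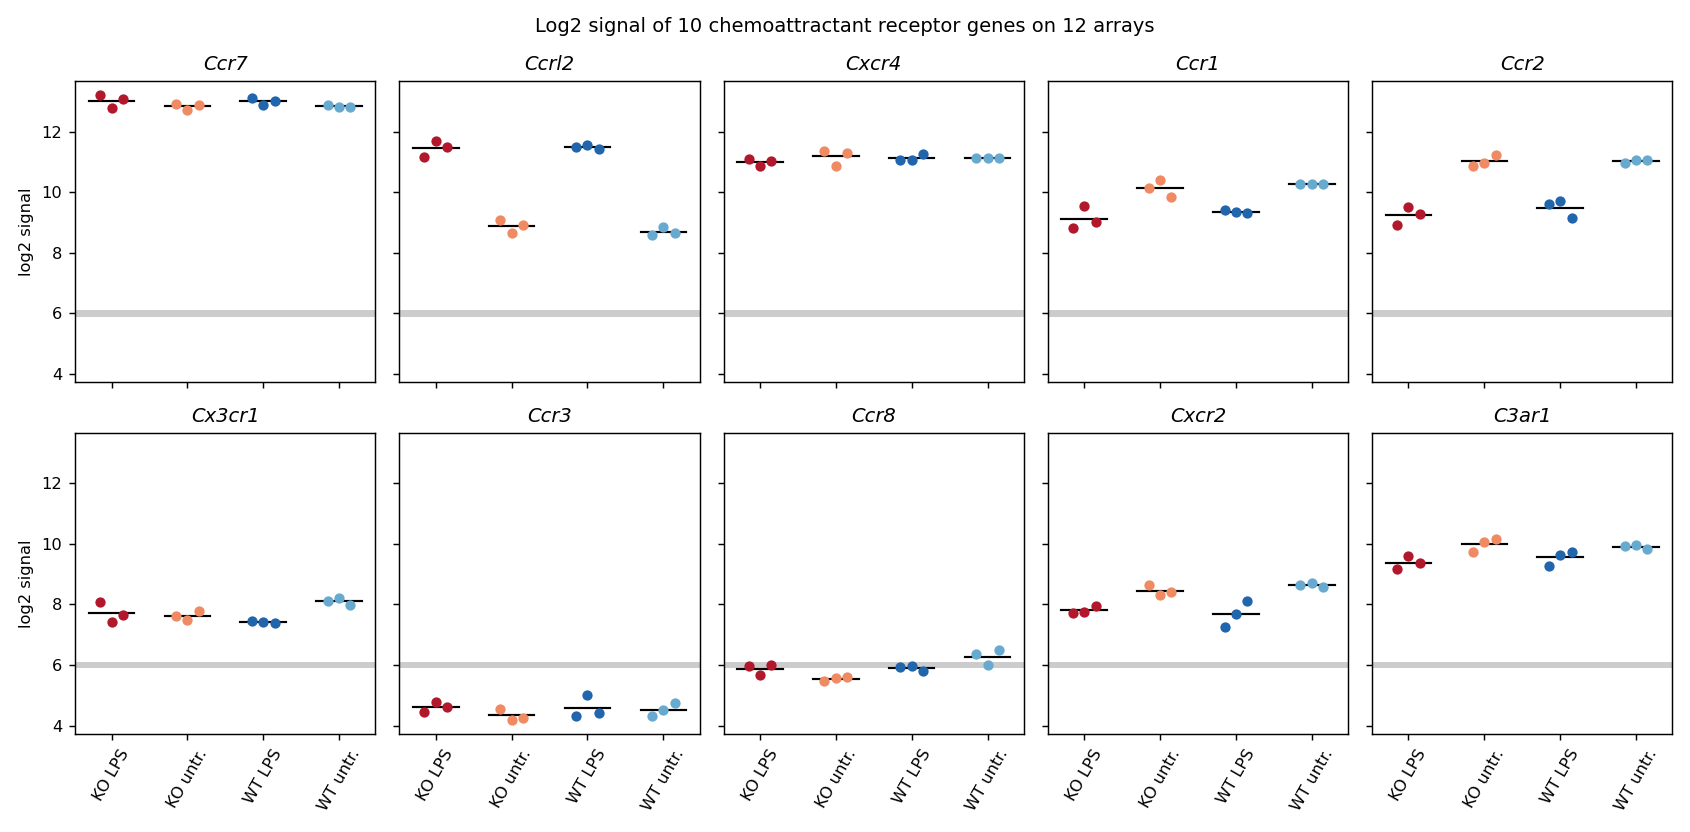
Log2 signal (vertical axis) of each receptor gene on the 12 arrays, in the 4 groups (KO, knockout; untr., untreated); points are arrays, bars are group means, and the grey band is the range over arrays of the background level (5.89 to 6.10). Ccrl2 is high and Ccr2 low in both LPS groups, Ccr7 and Cxcr4 stay within 1 unit, and Ccr3 lies under the band.

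Ccrl2 had the largest change of the 10. Its log2 signal was 11.16, 11.70 and 11.50 on the arrays of LPS-treated knockout cells and 9.10, 8.64 and 8.91 on those of untreated knockout cells. It was 11.51, 11.55 and 11.43 in LPS-treated wildtype cells, against 8.59, 8.84 and 8.67 in untreated wildtype cells. Every LPS array of either genotype lay above every untreated array, by more than 2 log2 units between the nearest arrays. The log2 difference was 2.57 in knockout (SE 0.16, 5.93-fold higher, limma adjusted p = 8.89e-06) and 2.79 in wildtype (SE 0.22, 6.93-fold higher, adjusted p = 0.000207). The responses of the 2 genotypes differed by -0.22 (95% interval -0.82 to 0.37; adjusted p = 0.948). Ccrl2 passed the threshold in all 25 alternative settings in knockout, with log2 differences of 2.27 to 2.72, and in all 24 in wildtype, with 2.65 to 2.86.

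Ccr2, the receptor for Ccl2 that marks inflammatory monocytes, had the largest decrease. On the 3 arrays of a group its log2 signal was 8.90, 9.51 and 9.30 in LPS-treated knockout cells and 10.85, 10.98 and 11.22 in untreated knockout cells. It was 9.61, 9.72 and 9.15 in LPS-treated wildtype cells, against 10.97, 11.06 and 11.05 in untreated wildtype cells. The LPS arrays were all lower than the untreated ones in both genotypes, with no overlap. Ccr2 fell by 1.78 on the log2 scale in knockout (SE 0.19, 3.44-fold lower, limma adjusted p = 0.000328) and by 1.54 in wildtype (SE 0.26, 2.90-fold lower, adjusted p = 0.0171). In knockout the call held in all 25 alternatives. In wildtype it was lost without the arrays of low small RNA signal (log2 difference -1.42, adjusted p = 0.0819) and with only the 2 wildtype groups in the fit (adjusted p = 0.0555).

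Ccr1, the receptor for Ccl3 and Ccl5, also fell in knockout. The log2 signal was 8.83, 9.54 and 9.01 in LPS-treated knockout cells and 10.14, 10.41 and 9.85 in untreated knockout cells. It was 9.43, 9.34 and 9.31 in LPS-treated wildtype cells, against 10.28, 10.29 and 10.26 in untreated wildtype cells. The LPS arrays lay below the untreated arrays in both genotypes without overlap. The decrease in knockout was 1.01 on the log2 scale (log2 difference -1.01, SE 0.19, 2.02-fold lower, limma adjusted p = 0.00974), and it missed the threshold without replicate 3 of the LPS-treated knockout group (log2 difference -0.96, adjusted p = 0.0517). In wildtype the log2 difference was -0.92 (SE 0.26, adjusted p = 0.161). It passed with the untreated wildtype arrays as 3 samples (adjusted p = 0.00429) and without the 3 arrays of Y-linked signal (adjusted p = 0.0399).

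C3ar1, the C3a receptor, had the smallest decrease among those called. The arrays gave log2 signals of 9.17, 9.59 and 9.36 in LPS-treated knockout cells and 9.75, 10.08 and 10.18 in untreated knockout cells. They were 9.29, 9.64 and 9.74 in LPS-treated wildtype cells, against 9.93, 9.95 and 9.84 in untreated wildtype cells. The LPS arrays were lower in both genotypes without overlap, and in each genotype the gap between the nearest arrays was small beside the spread within the LPS group. In knockout it fell by 0.63 on the log2 scale (SE 0.16, 1.55-fold lower, limma adjusted p = 0.0486), and the log2 difference in wildtype was -0.35 (SE 0.23, adjusted p = 0.758). The knockout call was lost in 12 of 25 alternatives. Among these were leaving out replicate 2 or 3 of untreated knockout (adjusted p = 0.146 and 0.17), replicate 1 or 3 of LPS-treated knockout (0.131 and 0.147) and replicate 2 or 3 of LPS-treated wildtype (0.0705 and 0.0567). Without the arrays of Y-linked signal it was 0.0583 and without those of low small RNA signal 0.0834. The call held in 13 alternatives, among them the replicate block (limma adjusted p = 0.00616), in a fit that called 6.13% of all genes lower.

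Cxcr2, the neutrophil receptor for Cxcl1 and Cxcl2, missed the threshold in both genotypes. Its log2 signal was 7.72, 7.76 and 7.94 in LPS-treated knockout cells and 8.63, 8.32 and 8.41 in untreated knockout cells. It was 7.27, 7.69 and 8.10 in LPS-treated wildtype cells, against 8.66, 8.70 and 8.57 in untreated wildtype cells. The LPS arrays were lower without overlap, and the LPS-treated wildtype arrays spread most widely. The log2 difference was -0.65 in knockout (SE 0.19, limma adjusted p = 0.0694) and -0.96 in wildtype (SE 0.26, adjusted p = 0.135). In knockout, where replicate numbers paired the arrays, the replicate block gave an adjusted p of 0.0415, in a fit that called 10.4% of all genes (4.29% higher and 6.13% lower). Leaving out replicate 1 or 3 of LPS-treated wildtype gave 0.0279 and 0.0311. In wildtype it passed with 3 untreated samples (adjusted p = 0.00329) and without replicate 3 of the LPS group (log2 difference -1.17, adjusted p = 0.0438).

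**Figure D2:**
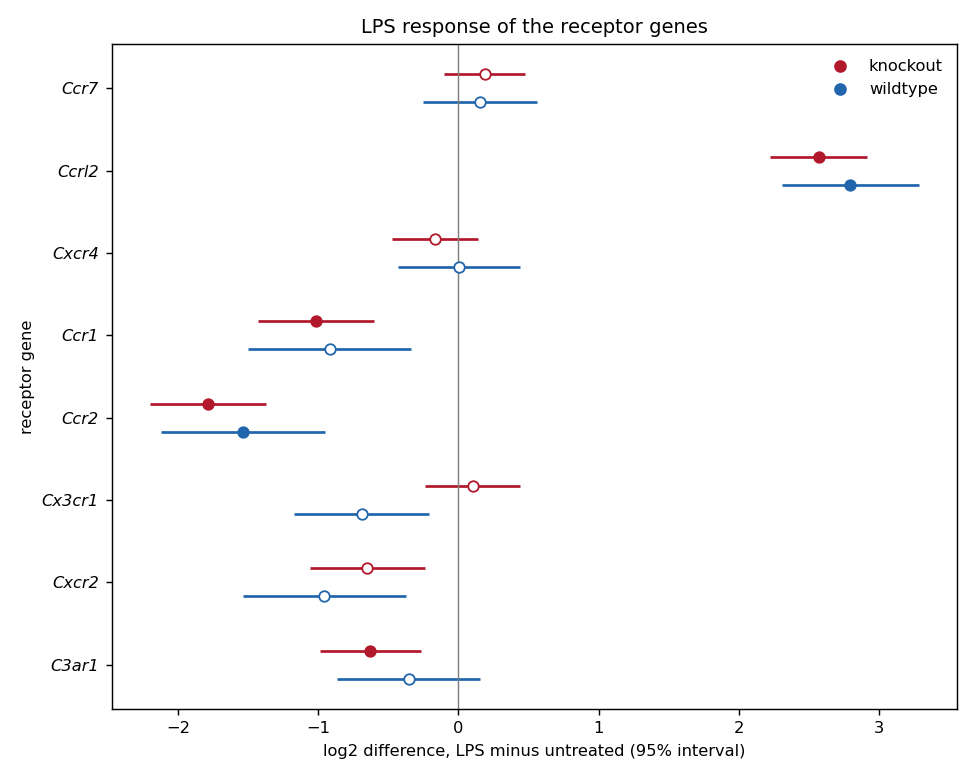
Log2 difference between LPS-treated and untreated cells (horizontal axis, with 95% interval) for the 8 receptor genes other than Ccr3 and Ccr8, knockout above wildtype; filled points passed an adjusted p of 0.05. Ccrl2 stands at 2.57 and 2.79, Ccr2 at -1.78 and -1.54, and the intervals of Ccr7 and Cxcr4 include 0.

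Ccr7, the lymph node homing receptor, did not pass in either genotype at this time. Its log2 signal was 13.22, 12.78 and 13.09 in LPS-treated knockout cells and 12.93, 12.73 and 12.88 in untreated knockout cells, groups that overlapped. It was 13.11, 12.90 and 13.01 in LPS-treated wildtype cells, against 12.87, 12.83 and 12.84 in untreated wildtype cells, where the LPS arrays were all higher by small steps. All 12 values, untreated cells included, lay near the top of the arrays' range. The log2 difference was 0.19 in knockout (95% interval -0.10 to 0.47, limma adjusted p = 0.472) and 0.16 in wildtype (95% interval -0.25 to 0.56, adjusted p = 0.945). These intervals exclude a 2-fold change of the array signal in either direction, the wildtype one with the untreated arrays counted as 1 sample. Whether signals this near the top of the range still follow the amount of RNA was not tested.

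Cxcr4 was nearly level over the 12 arrays. The log2 signal was 11.12, 10.89 and 11.05 in LPS-treated knockout cells and 11.38, 10.88 and 11.29 in untreated knockout cells. It was 11.08, 11.08 and 11.26 in LPS-treated wildtype cells, against 11.13, 11.15 and 11.12 in untreated wildtype cells. The groups overlapped in both genotypes. The log2 difference was -0.17 in knockout (95% interval -0.48 to 0.14, limma adjusted p = 0.559) and 0.0041 in wildtype (95% interval -0.43 to 0.44, adjusted p = 0.998).

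Cx3cr1, the fractalkine receptor of monocytes and resident phagocytes, had a difference of opposite sign in the 2 genotypes, and neither passed. Its log2 signal was 8.07, 7.43 and 7.65 in LPS-treated knockout cells and 7.61, 7.47 and 7.77 in untreated knockout cells, groups that overlapped. It was 7.45, 7.40 and 7.40 in LPS-treated wildtype cells, against 8.11, 8.23 and 7.98 in untreated wildtype cells, with the LPS arrays all lower. Untreated wildtype was the group with the highest mean and LPS-treated wildtype the one with the lowest, while the LPS-treated knockout arrays overlapped every other group. The log2 difference was 0.10 in knockout (adjusted p = 0.777) and -0.69 in wildtype (SE 0.22, adjusted p = 0.214, and 0.0096 with 3 untreated wildtype samples). The difference between the responses was 0.79 (95% interval 0.20 to 1.38, unadjusted p = 0.0133, limma adjusted p = 0.837).

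Ccr3 and Ccr8 were at or near the background level, and no fold or log2 difference between groups is given for them. The only size given is Ccr8's difference of responses, among the flagged results, and it is one between signals near the background. Ccr3, the eotaxin receptor of eosinophils, had a log2 signal of 4.17 to 5.01 and lay under the background level on all 12 arrays. Ccr8 had 5.97, 5.68 and 6.00 in LPS-treated knockout cells and 5.47, 5.57 and 5.60 in untreated knockout cells. It had 5.93, 5.98 and 5.81 in LPS-treated wildtype cells, against 6.36, 5.99 and 6.49 in untreated wildtype cells. Of its 12 values 3 were above the background level of their array, 1 of them in LPS-treated and 2 in untreated wildtype cells. Neither gene passed in either LPS comparison. For Ccr8 the adjusted p was 0.125 in knockout and 0.472 in wildtype, and 0.0372 in knockout without replicate 2 of its LPS group.

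Counted by whether arrays overlap, 2 receptors were higher on every LPS array of knockout cells (Ccrl2 and Ccr8) and 4 lower (Ccr1, Ccr2, Cxcr2 and C3ar1), where 10.3% of all genes were higher and 14.8% lower in this way. In wildtype cells 2 were higher (Ccr7 and Ccrl2) and 6 lower (Ccr1, Ccr2, Cx3cr1, Cxcr2, C3ar1 and Ccr8). There 16.2% of all genes were higher and 13.9% lower in this way. The wildtype counts take the nearly alike untreated wildtype arrays separately, although limma was fitted to their mean. Arrays this alike overlap less easily with others, so these counts are not a comparison of independent samples.

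No receptor passed the threshold between knockout and wildtype BMDC, and the response to LPS did not pass as different for any of the 10. The count was 0 of 10 by limma in untreated cells, after LPS, over both treatments and for the difference of responses. All genes were called at 0.00451%, 0.00902%, 0.0135% and 0% in these comparisons. In untreated cells the deleted gene Arc was itself not called (log2 difference -1.48), so a count of 0 there does not show that the receptors are unchanged. With the untreated wildtype arrays as 3 samples Arc passed there (limma adjusted p = 8e-04). At an unadjusted p under 0.05 the receptors numbered 2 in untreated cells (Cx3cr1 and Ccr8), 0 after LPS, 1 over both treatments (Ccr8) and 2 for the difference of responses (Cx3cr1 and Ccr8), where 4.04%, 3.95%, 3.3% and 4.43% of all genes did so.

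After LPS, the knockout and wildtype arrays of every receptor overlapped, where 2.81% of all genes were higher and 4.96% lower without overlap. The log2 differences had sizes of 0.03 to 0.30, the largest being 0.30 for Cx3cr1 (95% interval -0.04 to 0.64). Over all 10 receptors the 95% intervals reached 0.25 to 0.41 to each side of the difference. For Ccrl2 the difference of -0.04 had an interval of -0.39 to 0.30, and for Ccr7 that of 0.03 had one of -0.26 to 0.32. With the replicate block the count after LPS stayed at 0 of 10, in a fit that called 0.018% of all genes.

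In untreated cells, Ccr8 and Cx3cr1 were lower on every knockout array than on every wildtype array, and 11.6% of all genes were lower and 17.7% higher in this way. The nearly alike untreated wildtype arrays were again taken as 3 in this count. All 3 untreated knockout arrays of Ccr8 lay under the background level, against 1 of the 3 untreated wildtype arrays, so only its p-values are given (unadjusted p = 0.000941, limma adjusted p = 0.592). For Cx3cr1 the log2 difference was -0.49 (SE 0.22, unadjusted p = 0.0466, limma adjusted p = 0.97). With 3 untreated wildtype samples Ccr8 passed (adjusted p = 0.0381), in a fit that called 0.437% of all genes, and Cx3cr1 did not (adjusted p = 0.165). For Ccr7 the difference was under 0.01 with an interval of -0.41 to 0.41, and for Ccr2 it was -0.0097 with an interval of -0.60 to 0.58.

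**Figure D3:**
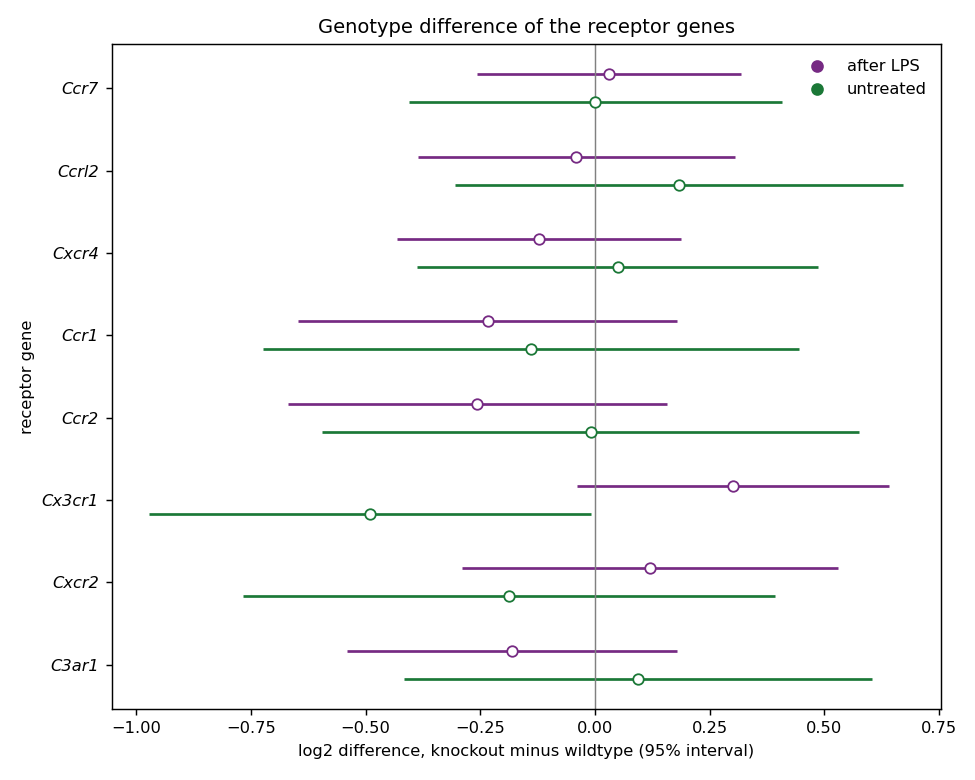
Log2 difference between knockout and wildtype cells (horizontal axis, with 95% interval) for the 8 receptor genes other than Ccr3 and Ccr8, after LPS (upper of each pair) and untreated (lower); open points did not pass an adjusted p of 0.05, and none did. Cx3cr1, at -0.49 in untreated cells, has an interval that leaves out 0.

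Of the ligands of these receptors, 19 of 23 listed were measured, and 8 rose with LPS in knockout and 7 in wildtype BMDC, with none lower by either limma fit. With the replicate block in knockout 8 were higher and 1 lower, Ccl6 (log2 difference -0.64, adjusted p = 0.0101, and 0.245 without the block). Their median log2 difference was 0.15 in knockout and 0.45 in wildtype. Of all genes, 2.98% were called higher in knockout and 1.34% in wildtype, and with the block in knockout 4.29% higher and 6.13% lower. Cxcl2, a Cxcr2 ligand, had a group mean log2 signal of 11.58 in LPS-treated knockout and 7.06 in untreated knockout cells, and of 11.49 in LPS-treated and 7.49 in untreated wildtype cells. On the log2 scale it rose by 4.52 in knockout (SE 0.31, 22.9-fold) and by 3.995 in wildtype (SE 0.44, 15.9-fold). Ccl4 rose by 3.90 and 3.64, and Ccl3, a Ccr1 ligand, by 3.47 and 3.70, in knockout and wildtype. Cxcl1, another Cxcr2 ligand, rose by 3.53 in knockout, and Ccl2, the main Ccr2 ligand, by 3.60 in wildtype. Without the arrays of low small RNA signal the calls of Cxcl2 and Ccl3 in wildtype were lost (log2 differences 3.85 and 3.46, adjusted p 0.0763 and 0.0781). Ccl19, Ccl21a, C3 and Rarres2 were not analysed here.

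Among 22 other chemokine and attractant receptors measured of 24 listed, 2 rose with LPS in knockout and none passed in wildtype, where 3 had an unadjusted p under 0.05, as did 9.91% of all genes. With the untreated wildtype arrays as 3 samples 4 were higher and 1 lower in knockout and 2 higher and 1 lower in wildtype. With the replicate block 4 were higher and 1 lower in knockout, the added ones being Ackr3 (log2 difference 0.43, adjusted p = 0.0446, and 0.0701 without the block), C5ar1 (0.67, adjusted p = 0.0438 and 0.245) and Ltb4r1 (-0.47, adjusted p = 0.016 and 0.0665). Ackr3 is an atypical receptor for Cxcl12, C5ar1 the receptor for the complement fragment C5a and Ltb4r1 that for leukotriene B4. Of all genes, 2.98% were called higher in knockout, and with the block 4.29% higher and 6.13% lower. With 12 samples 3.93% were called higher and 5.18% lower in knockout, and 5.39% higher and 3.26% lower in wildtype. Gpr183, the oxysterol receptor that positions dendritic cells, rose by 0.69 in knockout (SE 0.15, adjusted p = 0.0241), and Ptger4, a prostaglandin E2 receptor, by 0.50 (SE 0.11, adjusted p = 0.027). Both calls were lost without replicate 1 or 2 of untreated knockout (adjusted p 0.0752 and 0.0853 for Gpr183, 0.068 and 0.0987 for Ptger4), without replicate 3 of LPS-treated knockout (0.108 and 0.116) without the arrays of Y-linked signal (0.0729 and 0.101) and without those of low small RNA signal (0.1 and 0.19). Gpr183 was also lost without replicate 3 of untreated knockout (0.0695) and Ptger4 without replicate 1 of LPS-treated knockout (0.052). In wildtype the log2 difference was 0.61 for Ptger4 (adjusted p = 0.112, and 0.00273 with 3 untreated samples) and 0.54 for Ptafr, the receptor for platelet-activating factor (adjusted p = 0.383, and 0.0284). The median log2 difference of these receptors was 0.13 in knockout and -0.02 in wildtype.

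Of the genes that carry the signal below the receptors (G protein subunits, arrestins, receptor kinases, phosphoinositide 3-kinase gamma and small GTPases), 21 were measured and none passed in either genotype by limma. At an unadjusted p under 0.05 there were 3 in knockout and 0 in wildtype, where 20.3% and 9.91% of all genes did so. With 12 samples 1 was called lower in knockout, where 5.18% of all genes were. Plcb3, a phospholipase C, had a log2 difference of -0.35 in knockout (adjusted p = 0.0614, and 0.0433 with the replicate block) and -0.21 in wildtype (adjusted p = 0.756). Pik3r5, the regulatory subunit of phosphoinositide 3-kinase gamma, had 0.32 (adjusted p = 0.188) and 0.29 (adjusted p = 0.72). The list's median was -0.14 in knockout and 0.08 in wildtype.

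Genes of dendritic cell maturation rose with LPS, 5 of 12 in knockout and 4 of 12 in wildtype, with none lower. With the replicate block 6 rose in knockout, the added gene being Marcksl1 (log2 difference 0.60, adjusted p = 0.00999, and 0.07 without the block). Of all genes, 2.98% were called higher in knockout, 1.34% in wildtype, and 4.29% in knockout with the block. On the log2 scale Tnfsf9, a co-stimulatory ligand, rose by 3.71 in knockout and 3.56 in wildtype, Cd40 by 2.31 and 2.13, Il12b by 2.32 and 2.01, and Cd86 by 0.86 and 0.87. The Cd86 call in knockout was lost without the arrays of low small RNA signal (log2 difference 0.62, adjusted p = 0.0854). In wildtype the Cd86 call (adjusted p = 0.0498) was lost in most alternatives, and that of Il12b without the arrays of low small RNA signal (log2 difference 2.05, adjusted p = 0.173). Fscn1, the actin-bundling protein of mature cells, chosen for naming after its values were seen, had a log2 difference of 0.10 in knockout and 0.08 in wildtype and passed in neither. In the genotype comparisons and for the difference of responses, no gene of these 4 lists passed by limma, with 10 or 12 samples, and at an unadjusted p under 0.05 the only one was Ackr3, for the difference of responses (0.57, unadjusted p = 0.0231, adjusted p = 0.948).

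**Figure D4:**
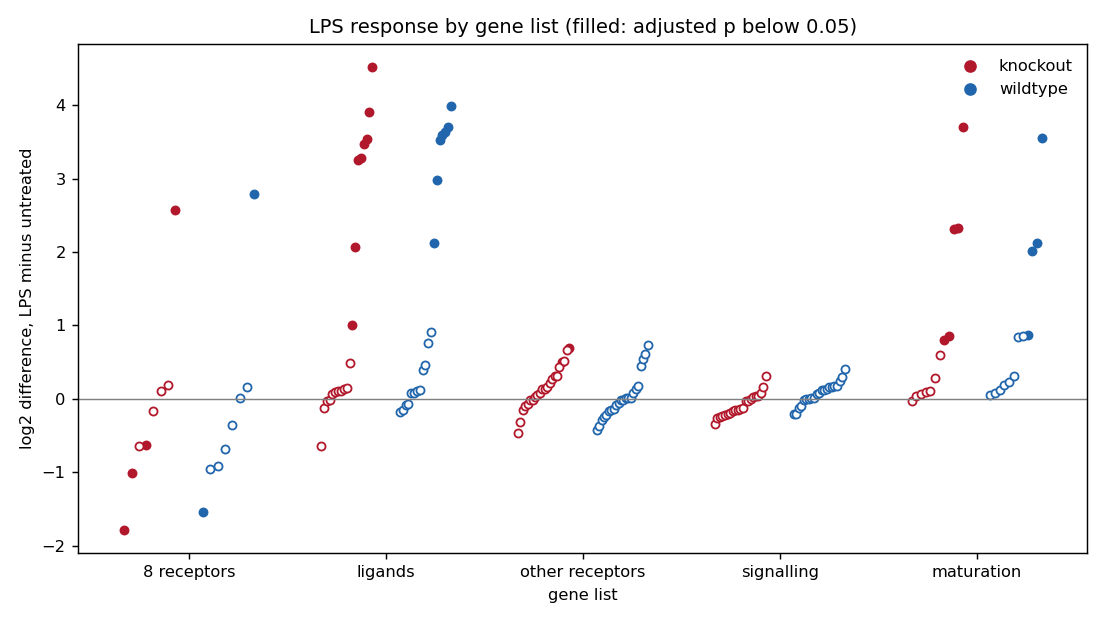
Log2 difference between LPS-treated and untreated cells (vertical axis) of 8 receptors (Ccr3 and Ccr8 left out) and of every measured gene of 4 lists, knockout left of wildtype, ordered by size; filled points passed an adjusted p of 0.05. The ligands reach 4.52 and the maturation genes 3.71, while the other receptors and the signalling genes stay between -0.47 and 0.74.

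Some markers of other cell types were lower after LPS, as were Ccr2, Ccr1 and C3ar1. Of 10 neutrophil markers, among them Ltf, S100a8 and Camp, 6 fell with LPS in knockout and 1 (Camp) in wildtype (7 and 7 with 12 samples). Of all genes, 2.93% and 0.234% were called lower in knockout and wildtype, and 5.18% and 3.26% with 12 samples. Log2 differences of the 10 markers ran from -1.69 to 0.24 in knockout and from -1.96 to -0.10 in wildtype. Their mean log2 signal per array was 7.65 to 8.04 in LPS-treated and 8.59 to 9.04 in untreated knockout cells, and 7.41 to 8.39 in LPS-treated and 8.96 to 9.02 in untreated wildtype cells. The LPS-treated wildtype array with the lowest Cxcr2 signal (replicate 1) had the lowest mean of these markers. In LPS-treated knockout the array with the lowest Cxcr2 signal was replicate 1 (7.72), while the lowest marker mean was on replicate 2 (7.65, against 7.75 on replicate 1). In both genotypes replicate 3 of the LPS group had the highest Cxcr2 signal and the highest marker mean. Camp alone was at or under the background level, in both LPS groups. Their part in the Cxcr2 values was not tested.

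Of 7 inflammatory monocyte markers, Chil3 and Ms4a6c fell in knockout (log2 differences -1.48 and -0.94) and none passed in wildtype, where 3 had an unadjusted p under 0.05 (9.91% of all genes) and 3 were called lower with 12 samples. With the replicate block Ly6c2 also passed in knockout (log2 difference -0.95, adjusted p = 0.042, and 0.174 without the block). Their mean log2 signal per array was 8.07 to 8.78 in LPS-treated and 9.08 to 9.47 in untreated knockout cells, and 8.25 to 8.93 in LPS-treated and 9.39 to 9.46 in untreated wildtype cells. None of the 7 was at or under the background level in any group. Their log2 differences ran from -1.48 to 0.16 in knockout and from -1.36 to 0.22 in wildtype. The medians were -0.78 and -0.87. Of all genes, 2.93% were called lower in knockout, 6.13% there with the replicate block, and 3.26% in wildtype with 12 samples. Of 9 macrophage markers Lyz2 alone fell, in knockout, where Adgre1 also passed with the block (adjusted p = 0.0392, and 0.116 without it), and the mean per array was 9.61 to 10.49 in LPS-treated and 10.32 to 10.55 in untreated knockout cells, and 10.13 to 10.21 in LPS-treated and 10.46 to 10.50 in untreated wildtype cells. The macrophage means overlapped between LPS-treated and untreated knockout arrays and not in wildtype, and the monocyte means overlapped in neither genotype. The part of either list in the results of Ccr2, Ccr1 and C3ar1 was not tested. Means of the dendritic cell markers were 10.54 to 10.72 in LPS-treated and 10.55 to 10.72 in untreated knockout cells, and 10.62 to 10.69 in LPS-treated and 10.44 to 10.54 in untreated wildtype cells. Among 4 eosinophil markers only Prg2 passed, and it fell in both genotypes (log2 differences -1.05 and -1.52). The median log2 difference of the 4 was -0.25 in knockout and -0.26 in wildtype, with a highest of -0.03 and 0.10. In every group 1 of the 4 was at or under the background level. Among 6 mast cell and basophil markers Hdc rose in knockout (1.21), as did Kit with the block (limma adjusted p = 0.0162, and 0.132 without it). The median log2 difference of these 6 was nevertheless negative, -0.24 in knockout and -0.21 in wildtype, with a lowest of -0.50 and -0.60. Of 6 T, B and NK cell markers 3 were at or under the background level in every group.

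**Figure D5:**
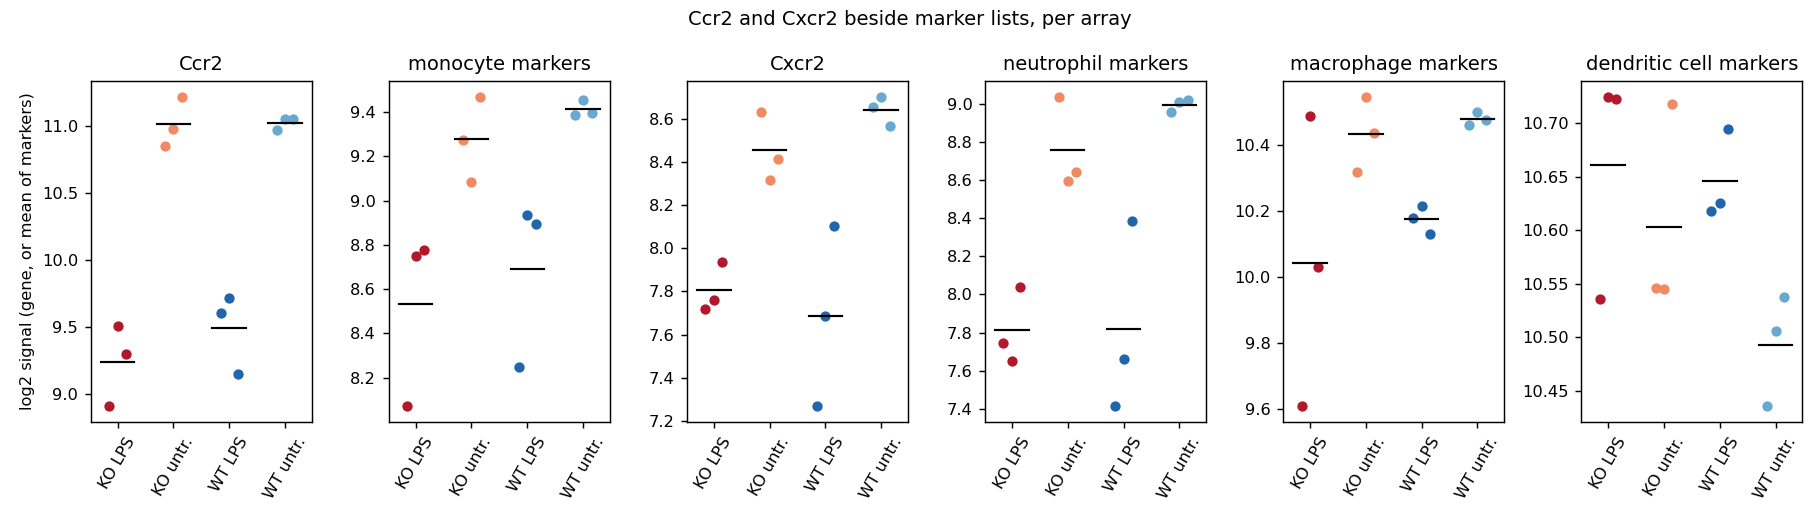
Log2 signal on each array of Ccr2 and Cxcr2, and the mean log2 signal of the monocyte, neutrophil, macrophage and dendritic cell markers (vertical axes differ between panels and do not start at 0); points are arrays and bars group means. Ccr2, Cxcr2 and the monocyte and neutrophil markers are lower on every LPS array than on every untreated array.

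The genes whose log2 signal followed each called receptor most closely over the 12 arrays were taken from 10241 brighter genes by Pearson's r, as a description; the arrays share the LPS contrast and 1 normalization. For Ccrl2 they were Nfkbiz (r = 0.996), Isg15 (0.996) and Il1a (0.995), which differed by 4.06, 2.80 and 4.32 with LPS in knockout. For Ccr2 they were Tifab (0.987), Mpeg1 (0.984) and Pygl (0.979), for Ccr1 Wfdc21 (0.974), Pygl (0.964) and Helb (0.960), and for C3ar1 Akirin2 (0.964), Cd300lb (0.964) and Ctss (0.963). Pygl, glycogen phosphorylase, was on the lists of both Ccr2 and Ccr1. On the map, the direct neighbours of Ccrl2 are Ltf and Lrrfip2. Ltf, a neutrophil granule gene, fell by 1.53 in knockout cells (limma adjusted p = 0.0283) while Ccrl2 rose. No value is given here for Lrrfip2.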

How the data were processed

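RNA of BMDC was labelled with the GeneChip WT PLUS kit and hybridised to 12 Affymetrix arrays, per the labels' protocols. The deposited values are log2 signals, 1 for each probe set on each array, already processed by the authors. Which background correction and normalization they used is not stated in the sources used here. The submitters' processing notes name limma without a version. Of 34390 probe sets, 23521 had 1 gene, 1814 several and 9055 none in the platform annotation, which can be old. For 1082 genes with several probe sets the one with the highest mean was used, which left 22180 genes, and 22139 of these symbols were found in a RefSeq gene table of GRCm38.p6. Each of the 10 receptors had 1 probe set. No filter on low signal was applied, and precision is limited by how few arrays there are.

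The test was limma 3.58.1 in R 4.3.3, fitted with a mean for each group and moderated by eBayes. Tests were two-sided, p-values were adjusted by Benjamini-Hochberg across the 22180 genes, and 0.05 was the threshold. The 3 untreated wildtype arrays entered as their mean, counted as 1 sample with the same assumed spread as the rest, which gave 10 samples and 6 residual degrees of freedom. There were 6 contrasts: LPS in knockout, LPS in wildtype, knockout against wildtype in untreated cells, in LPS-treated cells and in both together, and the difference of responses. Intervals are 95% intervals of the fit. An exact permutation test of 3 samples against 3 cannot go below 0.1, so none is given.

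The receptors and gene lists were chosen with earlier results of these data known. Named genes were the receptors, Arc, up to 4 genes per list and contrast past the threshold by size (or the 2 with the smallest p), and the 3 genes most correlated with each called receptor. Marker genes and genes called only with the replicate block were named after their values were seen. Correlations of residuals between arrays of the same replicate number were 0.381, 0.299 and 0.196 between LPS-treated and untreated knockout and 0.338, 0.358 and 0.228 between LPS-treated knockout and LPS-treated wildtype, all above 0.1, so numbers paired these groups as a result from the data. With untreated wildtype they were not all above 0.1. Alternatives were the untreated wildtype arrays as 3 samples, the replicate block, only the groups compared, 2 other scalings, a filter on signal, every probe set, another estimate of the spread, each array left out, and the arrays of Y-linked or low small RNA signal left out or as a term. The code was tested on simulated data.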

Additional observations from a re-analysis of the deposited data

Results flagged for a closer look

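For Ccr8, LPS moved every array upward in knockout cells and every array downward in wildtype cells. The difference between the responses was 0.71 on the log2 scale (SE 0.20, 95% interval 0.27 to 1.15, unadjusted p = 0.00465, limma adjusted p = 0.628). It was tested and did not pass after adjustment, with 10 samples or with 12 (adjusted p = 0.182). Opposite moves without overlap occurred in 216 of 22180 genes (0.974%), a count that takes the nearly alike untreated wildtype arrays as 3. The difference is one between signals near the background: Ccr8 lay within 0.50 of the background level on all 12 arrays, above it on 3.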

How the results depend on the processing

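Of the calls among the 10 receptors, Ccrl2 in both genotypes and Ccr2 in knockout held in every alternative run. Those of C3ar1 and Ccr1 in knockout and Ccr2 in wildtype did not, with values in the report. No called value changed sign, and 68 of 1428 receptor values under the 25 alternatives, none of them called, had another sign. Each receptor had 1 probe set, so other probe sets gave no value.

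Genes called numbered 1311 for LPS in knockout, 349 for LPS in wildtype, and 1, 2 and 3 for genotype untreated, after LPS and over both, and 0 for the difference of responses (982 at an unadjusted p under 0.05). With 12 samples they were 2021, 1917, 97, 2, 6 and 55. With the replicate block and 12 samples they were 2539, 2437, 223, 3, 9 and 112, and with the block over 9 arrays 2312 for LPS in knockout and 4 for genotype after LPS. Cxcr2 in knockout passed with the block (adjusted p = 0.0415), which changed no other call among the 10 receptors in the comparisons whose numbers paired the arrays. With 12 samples and the block, Ccr8 in untreated cells had an adjusted p of 0.0279.

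With only the groups compared, 196 genes were called for LPS in wildtype and 1 for genotype after LPS. Without the arrays of low small RNA signal the counts were 562, 76, 1, 1, 1 and 0 in the order above, and with a term for them 4 for genotype after LPS and 2 for the difference of responses. Without the arrays of Y-linked signal these last 2 were 5 and 6. Leaving out 1 array at a time gave 615 (without LPS-treated knockout replicate 3) to 1667 (without its replicate 2) for LPS in knockout and 184 (without LPS-treated wildtype replicate 3) to 452 (without LPS-treated knockout replicate 1) for LPS in wildtype. The other ranges were 1 to 2, 1 to 2, 2 to 3 and 0 to 35, the last without LPS-treated knockout replicate 2. For LPS in knockout the count was 737, 764 and 657 without replicates 1, 2 and 3 of untreated knockout, and for LPS in wildtype 231 without LPS-treated knockout replicate 3. The causes were not tested. Signals of Ccr3 and Ccr8 near the background limit what their values can show.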
